A study of Mus musculus with 4 samples.

Results

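The genes described here are Dot1l and 9 partners of its elongation complexes, 10 genes of 21896 protein-coding genes in all. They were chosen by name, as the gene body plus 2 kb on either side, and all 10 were found in the RefSeq gene table of GRCm38.p6. H3K79me2, a dimethylated lysine in the core of histone H3, was mapped by ChIP-seq, the sequencing of DNA pulled down with an antibody to the mark. The cells were BMDCs, antigen-presenting dendritic cells derived from the bone marrow of C57BL/6J mice, and all were kept in medium with fetal bovine serum. One group received PBS and the other 18 mM lysine for 6 h, and no time is given for PBS in the labels. Of the 4 samples, each group had 1 H3K79me2 library and 1 input. The labels say neither how the marrow was cultured into BMDCs nor whether animals were pooled. The values below come from the peak lists of the 2 H3K79me2 libraries, because no file of the inputs was analysed here. With 1 library per group there was no replicate spread to compare a difference with, no test was made, and every value describes these libraries alone. The depth of the libraries is unknown because peak lists hold no read totals.

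Dot1l is the methyltransferase that places methyl groups on lysine 79 of histone H3 over transcribed genes. Mllt1 and Mllt3 encode paralogous proteins whose YEATS domain binds acylated histones, and both can bind DOT1L or the scaffold proteins of the AFF family. Mllt6 and Mllt10 encode paralogous partners that bind DOT1L and favour its activity. Aff1 and Aff4 encode scaffolds of the super elongation complex, Ell and Ell2 encode factors that raise the rate of RNA polymerase II, and Cdk9 encodes the kinase of P-TEFb, which releases paused polymerase. Several human counterparts are fused to KMT2A in leukaemia.

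The promoter windows of 6 of these genes are shown because they mark the different patterns found: a window under peaks of both lists (Dot1l, Mllt1 and Ell2), of PBS alone (Cdk9), of lysine alone (the internal start of Mllt10) and of neither (Mllt6). Each is a RefSeq window of GRCm38.p6 from 250 bases before to 50 bases after an annotated start, written in the direction of the gene. Capitals mark matches on either strand to any of 5 motifs: GGGCGG, known as the GC box; CCAAT, bound by the factor NF-Y; TATAAA, the sequence of the TATA box; CCGGAA, the core bound by many ETS factors; and GAGGAA, the core bound by the ETS factor PU.1. In the windows, neighbouring or overlapping matches run together.
Dot1l, chr10:80754953-80755252, plus strand: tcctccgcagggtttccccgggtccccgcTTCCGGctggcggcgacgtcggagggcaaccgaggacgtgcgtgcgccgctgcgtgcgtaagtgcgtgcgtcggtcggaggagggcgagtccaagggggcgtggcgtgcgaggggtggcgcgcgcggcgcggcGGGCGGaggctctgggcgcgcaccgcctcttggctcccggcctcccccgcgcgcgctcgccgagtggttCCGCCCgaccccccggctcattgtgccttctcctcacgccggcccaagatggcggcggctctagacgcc
Mllt1, chr17:56935339-56935638, minus strand: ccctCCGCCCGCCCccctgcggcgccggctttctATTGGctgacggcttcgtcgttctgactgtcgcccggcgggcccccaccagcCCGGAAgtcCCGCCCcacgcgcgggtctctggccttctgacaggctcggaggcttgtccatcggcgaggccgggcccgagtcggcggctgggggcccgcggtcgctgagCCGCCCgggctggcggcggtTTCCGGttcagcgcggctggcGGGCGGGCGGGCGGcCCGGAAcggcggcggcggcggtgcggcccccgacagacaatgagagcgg
Ell2, chr13:75707234-75707533, plus strand: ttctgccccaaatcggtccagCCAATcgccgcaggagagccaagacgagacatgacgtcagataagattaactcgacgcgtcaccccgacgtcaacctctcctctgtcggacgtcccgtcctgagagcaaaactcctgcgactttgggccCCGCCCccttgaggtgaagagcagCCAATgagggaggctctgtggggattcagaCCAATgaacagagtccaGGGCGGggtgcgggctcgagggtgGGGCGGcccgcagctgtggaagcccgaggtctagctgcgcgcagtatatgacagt
Cdk9, chr2:32712735-32713034, minus strand: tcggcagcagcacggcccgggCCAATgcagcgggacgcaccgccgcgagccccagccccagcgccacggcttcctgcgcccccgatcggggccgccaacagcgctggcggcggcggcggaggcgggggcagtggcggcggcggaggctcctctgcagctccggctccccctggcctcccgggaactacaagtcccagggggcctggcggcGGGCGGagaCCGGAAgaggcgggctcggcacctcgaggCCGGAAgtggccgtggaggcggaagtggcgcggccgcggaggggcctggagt
Mllt10, chr2:18064335-18064634, plus strand: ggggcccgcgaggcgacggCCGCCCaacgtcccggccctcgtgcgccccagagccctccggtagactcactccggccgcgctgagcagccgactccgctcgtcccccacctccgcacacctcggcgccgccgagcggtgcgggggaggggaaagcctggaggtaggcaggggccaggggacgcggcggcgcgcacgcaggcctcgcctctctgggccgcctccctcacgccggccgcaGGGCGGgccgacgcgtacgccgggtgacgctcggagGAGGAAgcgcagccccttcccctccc
Mllt6, chr11:97663162-97663461, plus strand: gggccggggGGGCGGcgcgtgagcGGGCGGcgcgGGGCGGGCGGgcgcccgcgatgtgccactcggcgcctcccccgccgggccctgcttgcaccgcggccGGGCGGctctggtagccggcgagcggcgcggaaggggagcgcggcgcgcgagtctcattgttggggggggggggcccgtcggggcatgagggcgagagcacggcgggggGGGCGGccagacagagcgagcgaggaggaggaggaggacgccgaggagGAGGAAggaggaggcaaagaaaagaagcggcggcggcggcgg
The share of G and C in the 6 windows ran from 61.3% (Ell2) to 79.3% (Mllt6), against a median of 56.3% over windows of protein-coding genes. The number of CG dinucleotides was 49 in Dot1l, 46 in Mllt1, 23 in Ell2, 39 in Cdk9, 43 in Mllt10 and 46 in Mllt6, against a median of 13 over 21262 windows of protein-coding genes. The window without a peak in either list, that of Mllt6, thus had as many CG as that of Mllt1, which lay wholly under a peak in both. Of all windows 46.2% held GGGCGG, 38.2% CCAAT, 12.6% TATAAA, 18.7% CCGGAA and 27.4% GAGGAA. Matches to GGGCGG numbered 2 in Dot1l, 7 in Mllt1, 3 in Ell2, 1 in Cdk9, 2 in Mllt10 and 6 in Mllt6. TATAAA was in none of the 6, and Ell2 held CCAAT at 3 places.

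On 7 of these genes both libraries had an overlapping peak at the 5' end (22.7% of 17491 protein-coding genes had a peak within 1 kb of it in both). In sum the called peaks covered less length in the lysine library. The PBS list had 19 peaks on the 10 genes and covered 12516 bp (12.5 kb), and the lysine list had 14 peaks and covered 8946 bp (8.95 kb), a ratio of 0.715. Over all protein-coding genes, measured the same way, the ratio was 0.829, and over those of at least 20 kb, a length that all of the 10 but Cdk9 reach, it was 0.804. In 6 genes the lysine library had less covered length (24.5% of all protein-coding genes did) and in 3 it had more (16.8%). Those shares include the genes without a peak, which cannot differ. Among the 9067 protein-coding genes with a peak in either list, 5373 had less in lysine and 3680 had more. The members' median difference, lysine minus PBS, was -141 bp, with Mllt6, which had no peak, counted at 0. Over all protein-coding genes the median difference was 0 bp, and among the 9067 with a peak in either list it was -64 bp. Aff1 alone held 4942 of the PBS bases and 3345 of the lysine bases, and without it the totals were 7574 and 5601 bp, a ratio of 0.74.

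A peak was called on 9 of the 10 genes in PBS, against 36.9% of all protein-coding genes, and on 8 in lysine, against 34.0%. The 8 genes had a peak in both libraries, as did 29.5% of all protein-coding genes. Among genes of at least 20 kb these shares were 45.9% and 42.1%. A gene with at least 500 bp under peaks is called marked. By that rule 8 genes were marked in PBS (21.5% of all protein-coding genes) and 5 in lysine (18.7%), and 4 were marked in both (14.2%), namely Dot1l, Aff1, Aff4 and Ell. Mllt3, Ell2 and Mllt1 missed the threshold in lysine with 487, 409 and 462 bp, and Mllt10 missed it in PBS with 495 bp and passed it in lysine with 509 bp. A difference of at least 500 bp was found in 3 genes in the direction of less length in lysine (5.85% of all genes and 8.5% of those of at least 20 kb), namely Aff1, Ell and Cdk9. No member was longer in lysine by that much (2.87% of all genes).

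**Figure D1:**
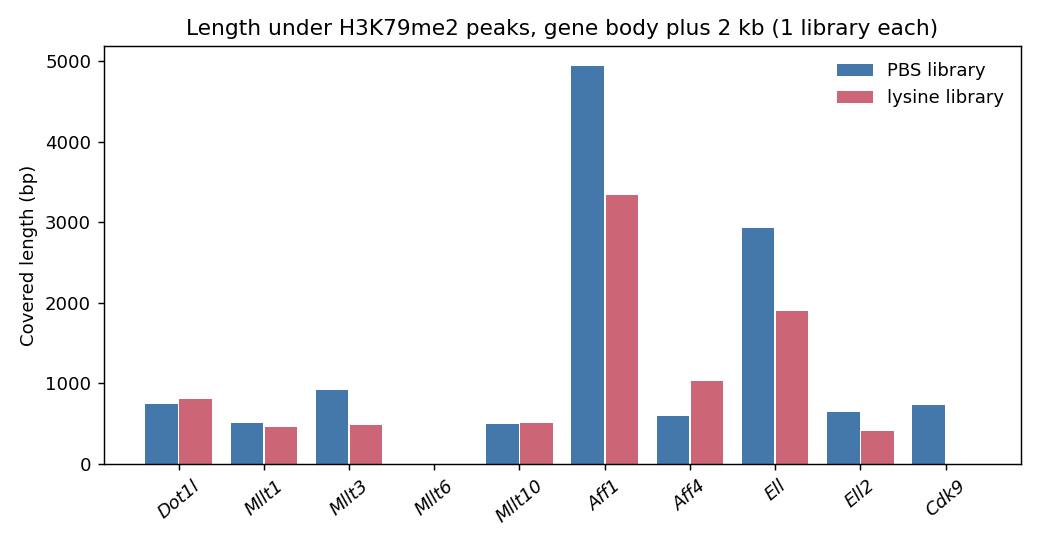
Length in bp under H3K79me2 peaks on each gene with 2 kb on either side, in the PBS library (blue) and the lysine library (red), 1 library each. Aff1 (4942 and 3345 bp) and Ell (2929 and 1904 bp) stand above the other genes in both, Mllt6 is at 0 in both and Cdk9 at 0 in lysine.

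Dot1l itself (chromosome 10, 80755101 to 80795461, plus strand) carried 2 peaks in each library, together covering 746 bp in PBS and 803 bp in lysine. The first lay over the 5' end in both, at 80754892 to 80755327 in PBS (436 bp) and, for lysine, from 80754932 to 80755431 (500 bp). These overlapped by 396 bp, and both covered all 300 bases of the promoter window printed above. The second peak was at a different place in each library: at 80758661 to 80758970 in PBS (310 bp), 3714 bp inside the gene by its midpoint, and at 80763573 to 80763875 in lysine (303 bp), 8623 bp inside. Neither internal peak was overlapped by a peak of the other list. The similar totals of the 2 lists thus hold only 396 bp in common. Within the PBS list 55.1% of peaks had a lower fold enrichment than the 5' peak (4.67). Within the lysine list 24.8% were lower than its 5' peak (3.90). Fold enrichment is the authors' ratio of a peak's signal to local background, and it is used here only to rank peaks within a list. The direction of the difference, 57 bp more in lysine, turned to -443 bp when peaks with a fold under 4 were left out, because the lysine 5' peak was among those. With 5 kb flanks it was 959 bp (1982 bp in PBS and 2941 bp in lysine), through wider lysine peaks upstream of Dot1l and at Plekhj1 with Sf3a2.

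The protein-coding genes whose 2 covered lengths lay nearest to those of Dot1l, by the sum of both absolute differences over the 2 libraries, were Hspa8 (742 bp in the PBS and 805 bp in the lysine library), Ep400 (753 and 808 bp), Cdkn2aip (757 and 813 bp), Myo16 (746 and 779 bp) and Dcun1d5 (741 and 783 bp). The sums of differences were 6, 12, 21, 24 and 25 bp.

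The acyl-histone readers Mllt1 and Mllt3 were each covered at the 5' end in both libraries. Mllt1 (chromosome 17, 56892608 to 56935509, minus strand) had a single peak per library, at 56935304 to 56935806 in PBS (503 bp) and, for lysine, from 56935338 to 56935799 (462 bp). The lysine peak lay wholly inside the PBS peak, and each covered the whole promoter window. This was the peak of highest rank on the 10 genes in the lysine list, with a fold of 7.20 above that of 93.3% of lysine peaks. Within the PBS list its fold of 5.49 was above that of 75.1%. Mllt3 (chromosome 4, 87769925 to 88033407, minus strand), the longest of the 10 genes at 263 kb, had 921 bp under PBS peaks and 487 bp under lysine peaks. Its 5' peaks, at 88032969 to 88033539 in PBS (571 bp) and, for lysine, from 88032968 to 88033454 (487 bp), overlapped by 486 bp. They differed at the upstream edge, which lay 132 bp before the 5' end in PBS and 47 bp before it in lysine. PBS had a further peak at 88005837 to 88006186 (350 bp), 27396 bp inside the gene, and lysine had none there. Within the PBS list 43.3% of peaks were lower in fold than the 5' peak of Mllt3 and 18.0% lower than its internal peak. Within the lysine list 13.5% were lower than its 5' peak. The lysine peak had a −log10 q, the authors' measure of significance, of 1.93, and at a minimum of 2 no lysine peak remained on the gene.

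Of the cofactor genes, Mllt6 had no peak in either library and Mllt10 had 1 in each at separate places. Mllt6 (chromosome 11, 97663122 to 97685461, plus strand) was one of the 58.6% of protein-coding genes on which neither library had a peak. The nearest peak within 5 kb of it lay at 97660015 to 97660636 in PBS (622 bp), over Gm11613 and 2486 bp from the gene, outside the 2 kb flank, with no lysine peak overlapping it. Mllt10 (chromosome 2, 18055160 to 18212390, plus strand) had 495 bp under its PBS peak, at 18056182 to 18056676, and 509 bp under its lysine peak, at 18064488 to 18064996. The PBS peak lay 1269 bp inside the annotated 5' end and the lysine peak 9582 bp inside it. RefSeq gives 3 promoter windows for Mllt10, of which the lysine peak touched the third by 147 bp, around a start 9425 bp inside the gene. That window, printed above, had 43 CG, while those nearer the 5' end had 7 and 6 and lay under no peak. Both Mllt10 peaks were among the weakest of their lists, with 13.2% of PBS peaks and 1.3% of lysine peaks lower in fold. The gapped list, which gives narrower blocks inside each region, held no block in the lysine region, the only one of the 14 lysine peaks without a block. With a −log10 q minimum of 2 the difference of 14 bp turned to -495 bp.

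**Figure D2:**
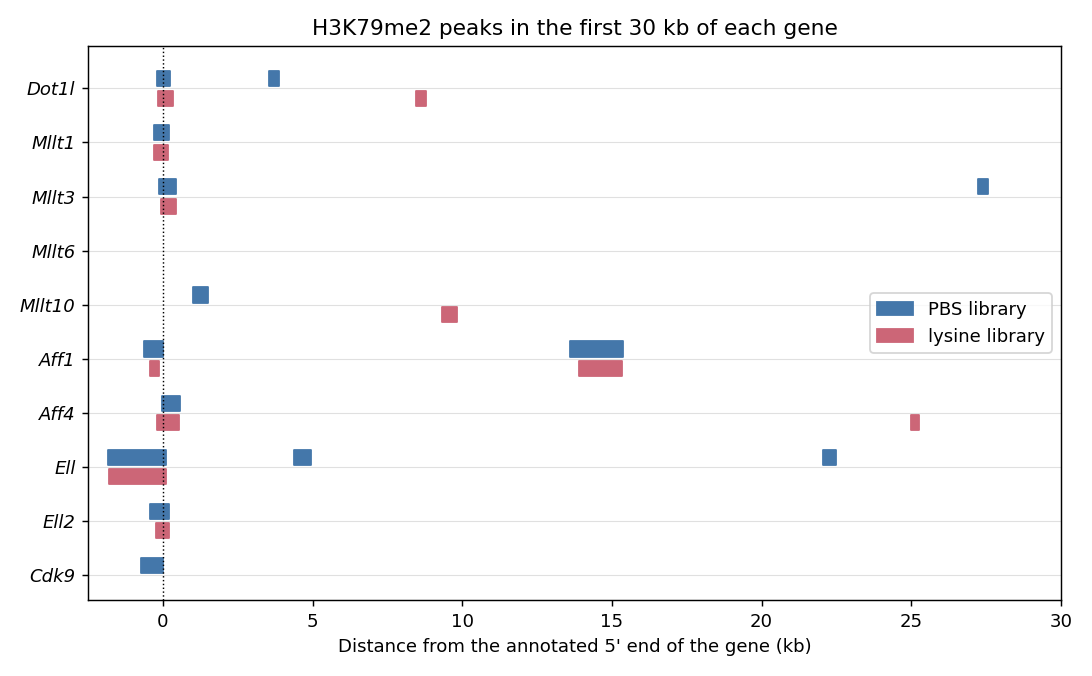
Peaks of the PBS (blue) and lysine (red) libraries against distance in kb from the annotated 5' end of each gene, up to 30 kb inside; the dotted line is the 5' end. Peaks of both libraries lie over or next to the 5' end of Dot1l, Mllt1, Mllt3, Aff1, Aff4, Ell and Ell2, and the internal peaks of Dot1l, Mllt3, Mllt10, Aff4 and Ell lie opposite no peak of the other library.

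The scaffold gene Aff1 held the most covered length of the 10 genes, in both libraries, and its peaks recurred at the same places. Aff1 (chromosome 5, 103692362 to 103855322, plus strand) had 7 peaks and 4942 bp in PBS and 5 peaks and 3345 bp in lysine, of which 3189 bp lay under both. In each list 99.9% of protein-coding genes had less covered length. Per kb of its window, however, Aff1 had less of it under PBS peaks (29.6 bp) than Ell (51.2 bp) or Cdk9 (66.8 bp). Each of the 5 lysine peaks was overlapped by a PBS peak, and 3 of the 5 lay wholly inside one.

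The first Aff1 pair lay just before the 5' end, at 103691723 to 103692363 in PBS (641 bp) and, for lysine, from 103691929 to 103692226 (298 bp). The second was the widest on the gene, at 103705963 to 103707723 in PBS (1761 bp) and, for lysine, from 103706266 to 103707695 (1430 bp), with midpoints 14481 and 14618 bp inside the gene. In both libraries this region was made of 2 narrow blocks, of 528 and 412 bp in PBS and 331 and 318 bp in lysine, with a stretch between them that only the broad call covers. Within the PBS list 87.2% of peaks were lower in fold, and within the lysine list 16.5% of peaks were. These ranks are not compared, because fold depends on the depth and enrichment of each library. The third pair, at 103752833 to 103753763 in PBS (931 bp) and, for lysine, from 103752992 to 103753905 (914 bp), shared 772 bp. It lay just upstream of the RefSeq promoter windows of Aff1, which belong to starts 61800 and 62211 bp inside the annotated 5' end, and touched neither. The fourth pair was at 103758507 to 103758988 (482 bp) in PBS and 103758493 to 103758843 (351 bp) in lysine, and the fifth at 103774694 to 103775127 (434 bp) and 103774696 to 103775047 (352 bp). Only PBS had peaks farther in, at 103778248 to 103778608 (361 bp) and 103783274 to 103783605 (332 bp), 86066 and 91077 bp inside the gene. The lysine peak was the narrower one in all 5 pairs, least so in the third. No peak of either library lay in the remaining stretch toward the 3' end of the gene.

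**Figure D3:**
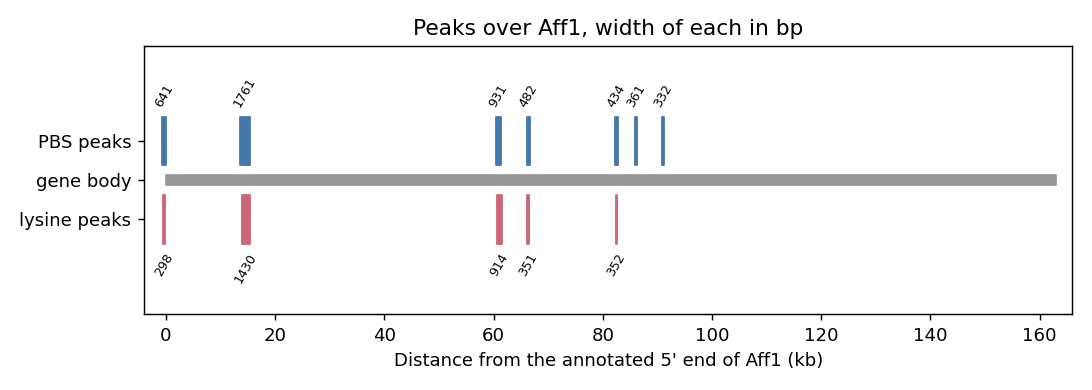
Map of Aff1 with the PBS peaks above and the lysine peaks below the gene body (grey), against distance in kb from the annotated 5' end; the number at each peak is its width in bp. The 5 lysine peaks stand opposite PBS peaks, and the PBS peaks of 361 and 332 bp have no lysine peak opposite.

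Aff4, the other scaffold gene (chromosome 11, 53350640 to 53421830, plus strand), was the member with the largest difference toward lysine, 432 bp. PBS peaks covered 595 bp of it and lysine peaks 1027 bp. The peak at its 5' end ran from 53350608 to 53351202 in PBS (595 bp) and, for lysine, from 53350439 to 53351188 (750 bp), and 581 bp were shared. The lysine peak reached farther upstream, to 201 bp before the 5' end against 32 bp in PBS, and so covered 300 bases of the promoter window against 209. Lysine also had a peak at 53375636 to 53375912 (277 bp), 25134 bp inside the gene, with no PBS peak there. That peak was narrow for its list, in which 1.26% of peaks were narrower. With a −log10 q minimum of 5 only the PBS 5' peak was left (6.40, against 4.36 in lysine), and the difference turned to -595 bp.

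The elongation factor genes Ell and Ell2 were covered at and before their 5' ends in both libraries, Ell more widely. Ell (chromosome 8, 70539675 to 70592858, plus strand) had 2929 bp under PBS peaks and 1904 bp under lysine peaks. Its main peak was the widest of all member peaks, at 70537845 to 70539771 in PBS (1927 bp) and, for lysine, from 70537874 to 70539777 (1904 bp), with 1898 bp in common. Most of it lay upstream of Ell, from 1830 bp before the 5' end to 96 bp after it in PBS, where it also overlies the non-coding gene Gm51534. In PBS the region held narrow blocks of 548 and 586 bp, and in lysine 1 block of 1904 bp, its full width. The whole difference of Ell in covered length came from 2 PBS peaks inside the gene without a lysine counterpart, at 70544044 to 70544615 (572 bp) and 70561720 to 70562149 (430 bp), and from the edges of the main peak. By narrow blocks the difference of -1025 bp was -232 bp, since the PBS blocks leave out the middle of the main region.

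Ell2 (chromosome 13, 75707484 to 75772361, plus strand) had 1 peak in each library, at 75707053 to 75707702 in PBS (650 bp) and, for lysine, from 75707264 to 75707672 (409 bp). The lysine peak lay wholly inside the PBS peak, which reached 431 bp upstream, where it touched the non-coding gene 1700037F03Rik, against 220 bp in lysine. It was the member peak of highest rank in PBS, with a fold of 7.18 above that of 92.4% of PBS peaks, and within the lysine list its fold of 5.26 was above that of 72.2%. Mllt1 and Ell2 were the only members with a lysine peak of −log10 q of at least 5 (10.9 and 5.75).

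Cdk9 (chromosome 2, 32705782 to 32712784, minus strand), the shortest of the genes at 7.0 kb, had 735 bp under a PBS peak and no lysine peak. Its PBS peak, at 32712778 to 32713512, reached 6 bp into the gene and lay almost wholly upstream. It covered 257 bases of the promoter window, and also touched Mir2861, Mir3960 and the non-coding gene Gm33457. By the gene body alone Cdk9 had 7 bp covered in PBS. The peak was of modest strength in its list, with 37.7% of PBS peaks lower in fold and a −log10 q of 3.27. The absence of a called peak in lysine does not show that the mark was absent, since signal under the calling threshold is not in the list.

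**Figure D4:**
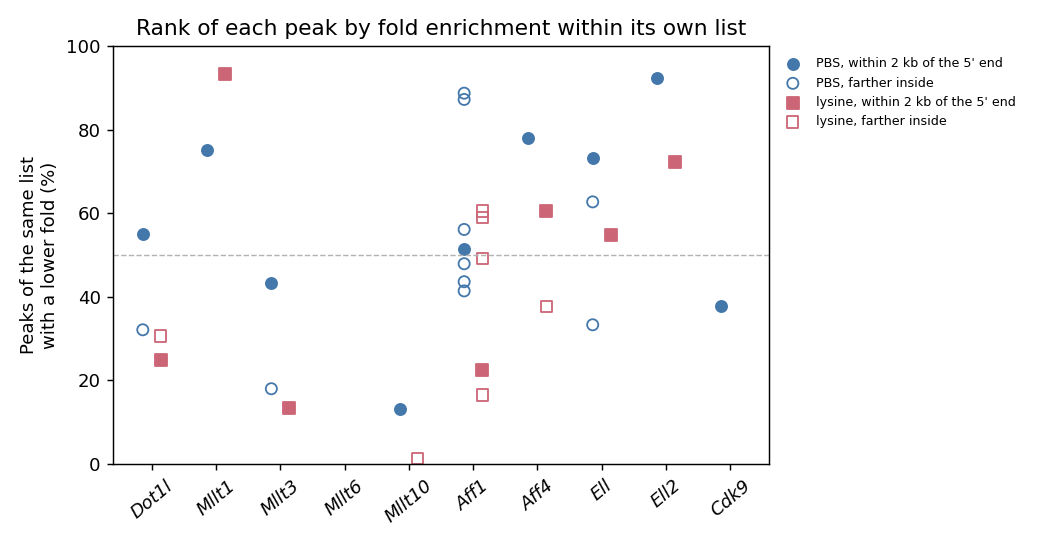
Share in % of the peaks of the same list that have a lower fold enrichment, for each member peak in PBS (blue circles) and lysine (red squares); filled points lie within 2 kb of the 5' end by their midpoint, open ones farther inside. The highest points are Ell2 in PBS (92.4%) and Mllt1 in lysine (93.3%), and the lowest is Mllt10 in lysine (1.3%). Fold depends on the depth and enrichment of each library, so a height can be read within 1 list only.

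The peaks that the libraries shared lay at 5' ends or on Aff1. Of the 19 PBS peaks on these genes 11 shared 1 bp or more with a lysine peak (57.9%, 95% Clopper-Pearson interval 33.5 to 79.7), against 61.9% of the whole PBS list. Of the 14 lysine peaks 11 overlapped a PBS peak (78.6%, 49.2 to 95.3), against 75.3% of the lysine list. These intervals cover counting error only and treat the peaks as independent, although Aff1 alone held 7 of the 19 and 5 of the 14. Both shares were near those of their lists. By position, 7 of 9 PBS peaks and 7 of 7 lysine peaks with a midpoint within 2 kb of the gene's 5' end were shared. Over the whole lists, peaks within 2 kb of the 5' end of a protein-coding gene were shared in 78.1% of cases in PBS and 84.0% in lysine. Of the member peaks farther inside, 4 of 10 in PBS and 4 of 7 in lysine were shared, and each of these lay on Aff1. On the other genes 0 of 4 and 0 of 3 internal peaks were shared. Internal is meant from the outermost 5' end, so it includes the lysine peak of Mllt10, which touched a promoter window by 147 bp. It also includes the third Aff1 pair, counted here as shared. The midpoints of that pair lay at -864 bp (PBS) and -714 bp (lysine) from a RefSeq start inside the gene. Elsewhere in the lists, peaks more than 2 kb from any 5' end were shared in 51.3% (PBS) and 68.4% (lysine) of cases.

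Most members had a peak at the start of the gene in each library. A peak touched the 1 kb on either side of the 5' end in 8 of 10 members in PBS (28.3% of 17491 protein-coding genes with a known strand) and in 7 in lysine (26.8%). The 3' end was touched in 0 of 10 in both libraries, against 2.44% and 2.09% of those genes, so that the count of 0 is near the background. Counted by promoter windows, 7 members were touched in each library (28.1% and 26.7% of genes) and 6 in both (22.3%). These 6 were Dot1l, Mllt1, Mllt3, Aff4, Ell and Ell2.

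The median width of member peaks was 503 bp in PBS (310 to 1927 bp) and 474.5 bp in lysine (277 to 1904 bp), against list medians of 456 and 450 bp. The median fold was 4.56 in PBS (3.66 to 7.18), with a list median of 4.52, and 4.32 in lysine (3.36 to 7.20), with a list median of 4.48. Peaks of −log10 q of at least 5 numbered 7 of 19 in PBS, where they made up 37.1% of the list, and 2 of 14 in lysine, where they made up 34.5%. Those of PBS lay on Mllt1, Aff1, Aff4, Ell and Ell2. With only these stronger peaks the members kept 6348 bp from PBS and 871 bp from lysine, a ratio of 0.137, while the ratio over all protein-coding genes was 0.777. With only peaks of at least 1 kb, which were those at Aff1 and Ell, the totals were 3688 and 3334 bp, a ratio of 0.904 against 0.719 over all genes.

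**Figure D5:**
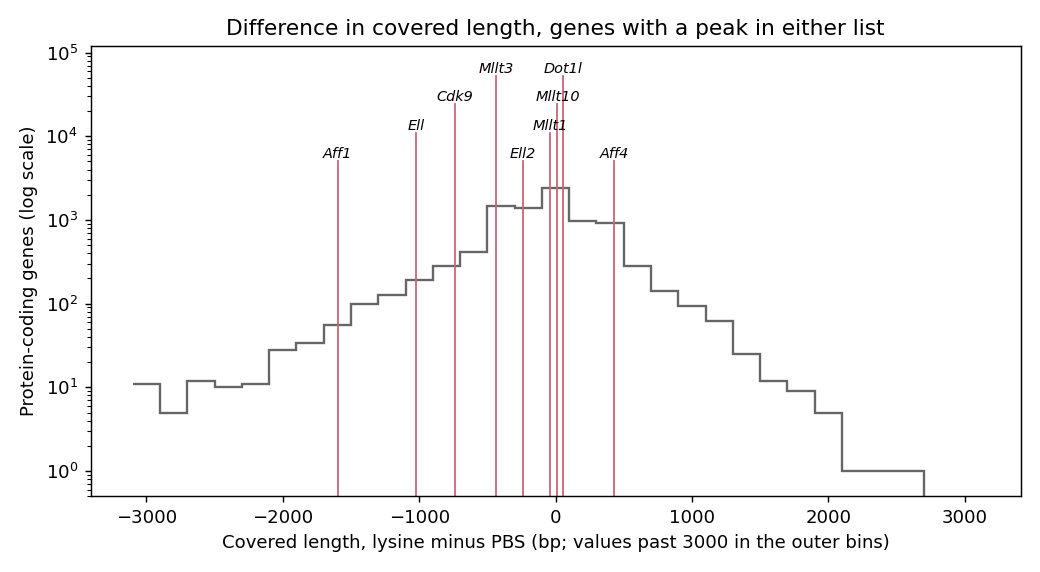
Difference in covered length, lysine minus PBS in bp, for the 9067 protein-coding genes with a peak in either list (grey line, number of genes per bin of 200 bp on a log scale), with the 9 members that have a peak as red lines. Aff1 (-1597 bp), Ell (-1025 bp) and Cdk9 (-735 bp) lie on the side of less length in lysine and Aff4 (432 bp) on the other.

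Other genes of the elongation pathway were taken as a list of 39, all matched to the gene table. Among them were the remaining AFF, ELL and EAF family genes, cyclins and regulators of P-TEFb, and the pausing factors. The PAF1 complex, histone chaperones and H2B ubiquitination enzymes were also in it, as were further genes such as Polr2a, Cdk12 and Tcea1. Each library had a peak on 30 of the 39 (36.9% of all protein-coding genes in PBS and 34.0% in lysine). A peak was called in both libraries on 27 of the 39 (29.5% of all) and in neither on 6 (58.6%). PBS marked 19 (21.5%) and lysine 21 (18.7%). Lysine had less covered length on 17 of them and more on 16. Among the 9067 protein-coding genes with a peak in either list these numbers were 5373 and 3680. The median difference was 0 bp over all protein-coding genes and also over the 39, of which 6 had no peak. The total of the 39 was 22.3 kb in PBS and 21.0 kb in lysine, a ratio of 0.942. It turned to 1840 bp more in lysine when both lists were held to the same number of peaks. At least 500 bp less in lysine was found in 3 of the 39 (5.85% of all protein-coding genes), and 0 had that much more (2.87%).

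The most covered of them were Mepce, which caps the 7SK RNA that holds P-TEFb inactive (1988 bp in the PBS and 1734 bp in the lysine library), and Eaf1, a partner of ELL (1786 and 1836 bp). Polr2a, the largest subunit of RNA polymerase II, had 1552 and 1348 bp, and Hexim1, the inhibitor of P-TEFb, 1210 and 1297 bp. Each of these had a peak in both libraries at the same place. Among the largest shortfalls in lysine were those at Supt6, a histone chaperone (801 and 0 bp), and Cdk12, an elongation kinase (1039 and 350 bp). The largest gains were at Tcea1, an elongation factor that rescues arrested polymerase (395 and 840 bp), Eaf2 (599 and 982 bp) and Supt5, a subunit of the pausing and elongation factor DSIF (0 and 379 bp). The windows of Mepce, Eaf1, Polr2a, Eaf2 and Supt6 also hold other protein-coding genes.

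The PBS list held 11926 peaks over 6.78 Mb and the lysine list 9805 over 5.40 Mb. Of 15 genes taken as dendritic cell markers, 11 carried a PBS peak and 7 a lysine peak, with 13430 and 7881 bp covered. Over all protein-coding genes 36.9% had a PBS peak and 34.0% a lysine peak. In the dendritic cell list, H2-Aa, Spi1, Irf4 and Csf2rb had no peak in either library. Of 5 macrophage markers 4 and 2 had a peak (4591 and 2323 bp), and of 6 neutrophil markers 1 and 0 (439 and 0 bp). The markers of mast cells, T and NK cells and B cells, 4, 5 and 4 genes, had no peak in either library. Whether the mix of cells or the depth of the libraries had a part in the differences on the members was not tested.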

How the data were processed

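Groups were taken from the sample titles, and the broad and gapped peak lists of the 2 H3K79me2 samples were used. The submitters' processing notes list MACS2 2.1.2 and Bowtie2 2.3.4.1, Trimmomatic 0.38 and cutadapt 1.18, also Picard, ChIPseeker and FastQC, and the build GRCm38, without roles. Peaks were deposited per sample. Of the calling thresholds and the use of inputs, neither is given in the sources used here. Without a header, the columns were assigned from the standard MACS2 broad format. The deposited fold enrichment is a linear ratio, the 2 deposited measures of significance are a −log10 p and a −log10 q, and the deposited score is 10 times −log10 q without decimals, except at 1 lysine peak. Each depends on the depth and enrichment of its library, so these values only ranked or filtered peaks within a list.

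Covered length is the number of bp of a gene body plus 2 kb on either side under broad peaks. Neighbouring genes can share it. The 5' end is the outermost RefSeq end, with the strand from the promoter table. Blocks of 1 bp, which mark a region's end, were left out. The members and lists were chosen with earlier results of these data known. Named genes are the 10 members, the 4 most covered of the elongation list and its 3 largest differences in each direction, and the 5 nearest to Dot1l. One gene named by this rule is not reported here. Alternatives were a −log10 q minimum of 2 or 5, a fold minimum of 4, peaks of at least 1 kb, equal numbers of peaks by −log10 p, other flanks, narrow blocks, an overlap of 0.5 of a peak to count as shared and other minimums for a marked gene. Tools were pandas 2.3.3, numpy 2.4.6, matplotlib 3.10.9 and scipy 1.17.1 under Python 3.11.15. Covered lengths had 0 differences from bedtools 2.31.1, and the 1839 overlapping promoter windows of opposite strands were reverse complements of each other, with 0 exceptions.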

Additional observations from a re-analysis of the deposited data

How the results depend on the processing

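The members' total, -3570 bp in lysine relative to PBS, kept its direction under each alternative. It was -4566 and -5477 bp with a −log10 q minimum of 2 and 5, -5949 bp with a fold minimum of 4, -354 bp with peaks of at least 1 kb, -2725 bp with equal numbers of peaks, -2298 bp by the gene body alone, -3290 bp with 5 kb flanks, -3246 bp by narrow blocks and -1973 bp without Aff1, an alternative chosen after seeing the data. The total of the elongation list (-1288 bp) became -3122, -1071, -1399, -2281, 1840, -2411, -1023 and -2376 bp in the same order up to narrow blocks, and so turned with equal numbers of peaks. The cause was not tested. Over all protein-coding genes the total was also lower in lysine under each of these alternatives. The ratio there ran from 0.719 with peaks of at least 1 kb to 0.961 with equal numbers of peaks. With equal numbers of peaks the members' ratio was 0.767. Members with a peak (9 in PBS and 8 in lysine) numbered 5 and 2 with a −log10 q minimum of 5 and 2 and 2 with peaks of at least 1 kb. They numbered 9 and 6 with a −log10 q minimum of 2, 8 and 6 with a fold minimum of 4, and 9 and 7 by narrow blocks. With 5 kb flanks they were 10 and 8, and with equal numbers of peaks 8 and 8. Marked members (8 and 5) numbered 5 and 0 with a −log10 q minimum of 5 and 2 and 2 with peaks of at least 1 kb. With 5 kb flanks 9 were marked in PBS. In lysine 4 were marked with a −log10 q minimum of 2, by the gene body alone and by narrow blocks. There were 3 in lysine with a fold minimum of 4, 5 in PBS by the gene body alone, 8 in lysine from 250 bp, and 2 and 3 from 1000 bp. Shared peaks (11 in each list) numbered 2 in each list with a −log10 q minimum of 5 and with peaks of at least 1 kb, 7 in each with a fold minimum of 4, and 6 in each without Aff1. Of single genes, Aff1 and Ell were shorter in lysine under all 8 alternatives, from -3325 to -331 bp and from -2357 to -23 bp. Dot1l turned with a fold minimum of 4 (-443 bp), Aff4 with a −log10 q minimum of 5 (-595 bp), and Mllt10 with a −log10 q minimum of 2 and by narrow blocks (-495 bp in both). No paired analysis was possible because each group has 1 library. The depth of the libraries is unknown, so what could have been detected cannot be stated.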
